A study of Mus musculus with 27 samples.

Results

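The 9 genes described here, *Gnpda1*, *Tafa5*, *Vwa8*, *Hes1*, *Ctcfl*, *Poc1b*, *Chrna2*, *Lrtm1* and *Gldn*, were chosen by measured values: they are genes with a small p for the difference between HGFAC-KO and control liver on HF/HS diet. All 9 were found in the table, each on 1 row, among 23191 gene symbols. In the order of that p they took ranks 3, 5, 6, 7, 8, 10, 11, 12 and 13 of 13544 genes tested, and 4 genes up to rank 13 were not on the list. The last gene inside was *Gldn*, with a log2 fold change of 1.94 ± 0.41 (SE), and the first outside, at rank 14, was *Adtrp*, with -0.23 ± 0.05. Their HF/HS genotype differences are therefore given below as a description with no test, and the same holds for the diet response within 1 genotype, which uses the same HF/HS mice. The comparisons given with a test are the genotype difference on chow and the response to diet over both genotypes together. The list was drawn up with earlier results known, chow included, and the diet comparison uses the HF/HS mice. Neither test is therefore free of the choice.

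HGFAC is a serine protease that the liver secretes into blood, where it activates hepatocyte growth factor, the ligand of the receptor MET on hepatocytes. The 9 genes belong to no single pathway. They include a Notch-responsive repressor (*Hes1*), a germ cell relative of the chromatin organizer CTCF (*Ctcfl*), an enzyme of aminosugar metabolism (*Gnpda1*), a mitochondrial ATPase (*Vwa8*), a centriole protein (*Poc1b*), a receptor subunit (*Chrna2*), a secreted factor (*Tafa5*), a Schwann cell protein (*Gldn*) and a membrane protein with leucine-rich repeats (*Lrtm1*).

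Liver RNA was sequenced from 27 male C57BL/6J mice, which were 8 weeks old at the start and ate chow or HF/HS diet for 4 weeks. Chow was fed to 7 littermate controls and 6 knockouts (HGFAC-KO), and HF/HS diet, high in fat and sugar, to 7 of each genotype. The HGFAC-KO line carries a CRISPR/Cas9 deletion running from within exon 1 through exon 2 in all cells of the body, and the sources do not say how many founders it came from. Libraries held 36056177 to 57298657 counts, and levels are given as CPM, the counts of a gene divided by those of its library at a fixed scale, adjusted by TMM.

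The targeted gene followed the labels. *Hgfac* lay between 183 and 219 CPM in chow controls and between 65.4 and 84.5 CPM in chow HGFAC-KO mice, and between 247 and 296 CPM against 81.8 and 101 CPM on HF/HS diet. Reads from outside the deletion are part of these counts. The summed level of 10 hepatocyte markers lay between 82175 and 120542 CPM over all mice, and none of the 10 averaged under 1 CPM. Of the 27 libraries, HGFAC-KO chow replicate 1 lay farthest from the median of its group, by 0.22 on the log2 scale averaged over 11841 genes. Next came control HF/HS replicate 7, at 0.20, ahead of HGFAC-KO HF/HS replicate 2 at 0.15. Results on chow that rest on HGFAC-KO chow replicate 1 are given with and without it. HF/HS values include control replicate 7 unless stated.

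On HF/HS diet, 2 of the 9 genes were higher in HGFAC-KO mice (*Hes1* and *Gldn*) and 7 were lower. *Gnpda1* and *Vwa8* were the 2 genes whose groups did not overlap on HF/HS diet, against 0.0812% of all genes tested, and nothing is read from that count because this comparison chose the genes. In the plot of levels by mouse the other 7 genes showed partial overlap of the groups.

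**Figure D1:**
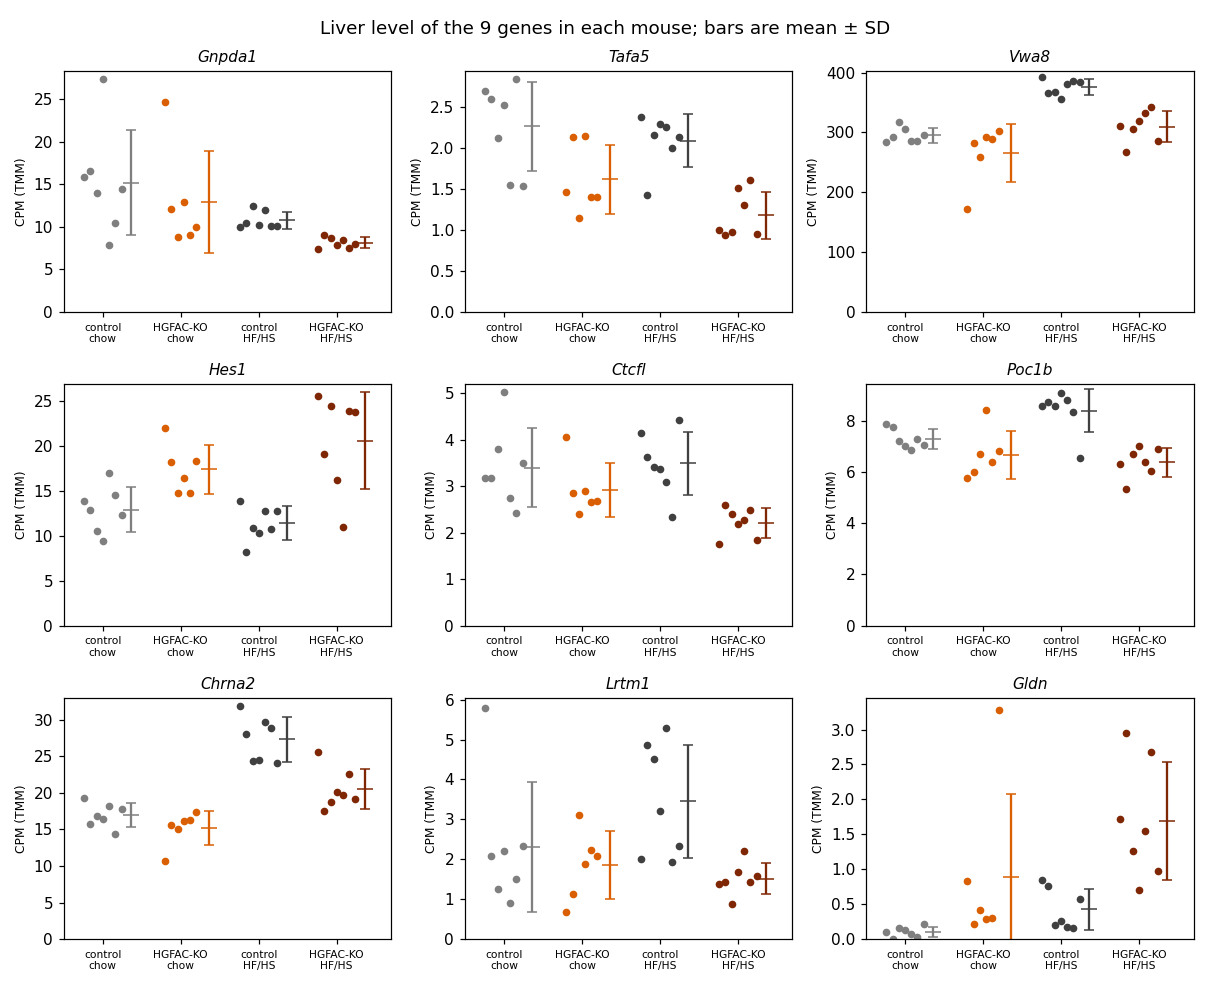
Level of each of the 9 genes in every mouse (y axis, CPM after TMM scaling, from 0) in the 4 groups (x axis); points are mice and bars are mean ± SD, with the lower SD bar of *Gldn* in HGFAC-KO chow mice cut at 0. On HF/HS diet all 7 HGFAC-KO mice lay below all 7 controls for *Gnpda1* and *Vwa8*, and *Chrna2* was higher on HF/HS diet than on chow in every mouse of the same genotype.

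On chow, 8 of the 9 genes passed the low-count filter, and 0 of these 8 passed an adjusted p of 0.05 (edgeR quasi-likelihood test, Benjamini-Hochberg over 13571 genes), where 0.00737% of all genes tested passed, the single one being *Hgfac*. Limma voom also called 0 of the 8, while DESeq2 gave no adjusted p for 7 of them. At an unadjusted p under 0.05, 2 of the 8 were counted, *Hes1* and *Tafa5*, against 5.98% of all genes tested. That count moved between 1 and 3 with the mice left out. *Tafa5* missed it without control chow replicate 6 or HGFAC-KO chow replicate 3, while *Ctcfl* joined without HGFAC-KO chow replicate 1 and *Poc1b* without HGFAC-KO chow replicate 4. *Vwa8* joined with 1 surrogate variable in the fit. *Gldn*, which the filter removed on chow, had an unadjusted p under 0.05 in the fit without a filter. No gene had groups without overlap on chow, against 0.125% of all genes tested. The direction of the difference was the same on chow as on HF/HS diet for all 8 genes that passed the filter, against 58.6% of all genes tested on both diets, and for *Gldn* in the fit without a filter. The rule names the HF/HS p, but the list was drawn up with earlier results known, chow included, so the count is a description. It also rested on 1 mouse, since without control chow replicate 1 *Lrtm1* moved from -0.31 to 0.12 on the log2 scale.

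**Figure D2:**
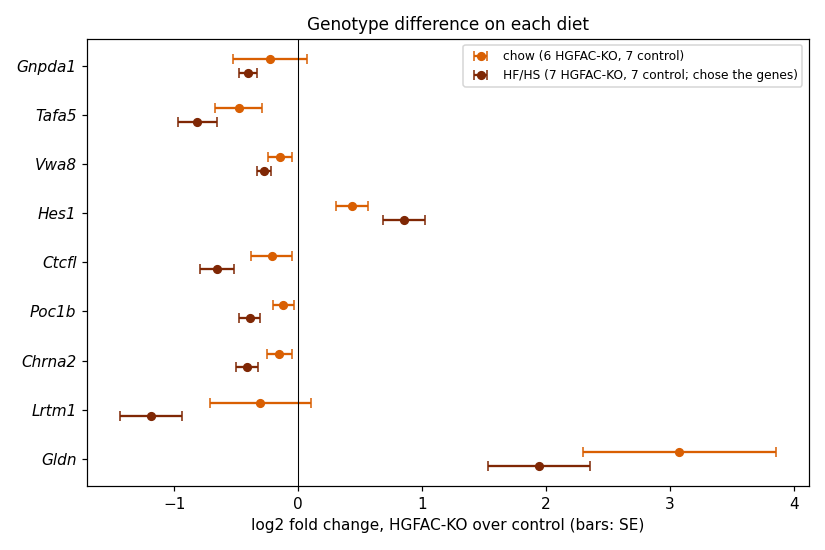
Genotype difference of each gene (x axis, log2 fold change of HGFAC-KO over control) on chow and on HF/HS diet, with bars of 1 SE; *Gldn* on chow is from the fit without a low-count filter. All 18 points lie on the side of 0 that the same gene took on the other diet, and the point on HF/HS diet lies farther from 0 than the point on chow for 8 of 9 genes, with *Gldn* as the exception.

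Diet was compared over both genotypes together, which weighs HGFAC-KO and control mice equally, so the genotype difference itself cancels. The 14 HF/HS mice that chose the genes still enter it, and their spread with them, so this test is not free of the choice. By that comparison 4 of the 9 genes passed the adjusted p (edgeR quasi-likelihood test over 13932 genes). *Vwa8*, *Chrna2* and *Gldn* were higher on HF/HS diet, where 12.1% of all genes tested passed in that direction, and *Gnpda1* was lower, where 11.4% passed. *Gldn* is lowly counted, and a filter of at least 10 counts in every library removes it and leaves 3 genes. Markers of other liver cells also moved with diet. On HF/HS diet 5 of 10 Kupffer and myeloid markers rose (median log2 fold change 0.38), 5 of 10 endothelial (0.28) and 2 of 10 stellate (0.22). Of the markers tested, 1 of 8 lymphocyte (0.15) and 1 of 6 Schwann cell and nerve markers (0.16) rose, and 1 stellate marker fell. Their part in the diet differences of the 9 genes and of the gene lists below was not tested. Between diets within controls, *Vwa8* and *Chrna2* had groups that did not overlap, against 3.53% of all genes tested. Within HGFAC-KO mice this held for *Chrna2* alone of the 9, against 3.01% of all genes tested.

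**Figure D3:**
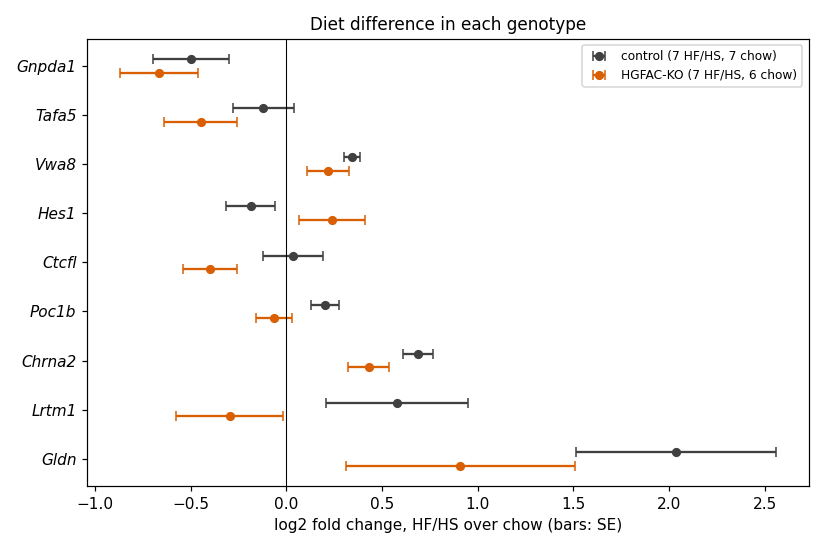
Diet difference of each gene (x axis, log2 fold change of HF/HS diet over chow) in controls and in HGFAC-KO mice, with bars of 1 SE; *Gldn* in controls is from the fit without a low-count filter. *Chrna2*, *Vwa8* and *Gldn* lie above 0 and *Gnpda1* and *Tafa5* below 0 in both genotypes. *Hes1*, *Ctcfl*, *Poc1b* and *Lrtm1* take opposite signs in controls and in HGFAC-KO mice. The choice of the genes by their HF/HS genotype difference pushes the responses of the genotypes apart, so nothing is read from opposite signs.

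*Hes1* (chromosome 16, 30064384 to 30067796 of GRCm38, plus strand) encodes a basic helix-loop-helix repressor and is the classic target gene of Notch signalling, which in liver guides bile duct formation. In mice fed HF/HS diet it lay between 8.22 and 13.9 CPM in controls, with a median of 10.9, and between 10.9 and 25.6 CPM in HGFAC-KO mice, with a median of 23.8. Of the 7 HGFAC-KO mice 6 lay above every control, and the 1 that did not, replicate 5, was at 10.9 CPM. This was a log2 fold change of 0.86 ± 0.17 (SE). On chow it lay between 9.41 and 16.9 CPM in controls (median 12.8) and between 14.8 and 22.0 CPM in HGFAC-KO mice (median 17.3). On that diet 3 of 6 HGFAC-KO mice lay above every control, and the other 3 within the controls' range. The log2 fold change on chow was 0.44 ± 0.13 (edgeR quasi-likelihood test, unadjusted p = 0.00411, adjusted p = 0.801, rank 55 of 13571). An exact two-sided permutation test over all splits of the 13 chow mice gave p = 0.00991, the smallest value possible being 0.000583. Without HGFAC-KO chow replicate 1, the highest of its group at 22.0 CPM, the difference was 0.36 ± 0.13 (edgeR, unadjusted p = 0.0130). For diet, the log2 fold change averaged over genotypes was 0.03 ± 0.11 (adjusted p = 0.882), with -0.19 ± 0.13 in controls and 0.24 ± 0.17 in HGFAC-KO mice.

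Of the 39 Notch pathway genes listed beside *Hes1*, 37 were tested on chow, and none passed the adjusted p in either direction. At an unadjusted p under 0.05, 1 was higher (*Sox9*) and 1 was lower (*Tle3*, a corepressor), where 5.98% of all genes tested passed in either direction. The count is thus near that share. The median log2 fold change of the list was 0.03 against 0.00 over all genes. *Sox9*, a transcription factor of the bile duct lineage, lay between 11.1 and 26.5 CPM in chow controls (median 17.9) and between 22.6 and 31.5 CPM in chow HGFAC-KO mice (median 27.9). Its chow log2 fold change was 0.55 ± 0.16 (edgeR quasi-likelihood test, unadjusted p = 0.00462, adjusted p = 0.801). In HF/HS-fed mice *Sox9* lay between 8.66 and 22.3 CPM in controls (median 15.9) and between 17.8 and 38.1 CPM in HGFAC-KO mice (median 24.2), and 6 of 7 HGFAC-KO mice lay above every control. Thus *Sox9* and *Hes1* had higher medians in HGFAC-KO mice on both diets. The receptor *Notch1*, named after its values were seen, had chow means of 34.0 ± 3.52 CPM (SD, n = 7) in controls and 35.0 ± 3.28 CPM (n = 6) in the knockouts, less than 1 SD apart, and HF/HS means of 32.2 ± 4.14 CPM and 36.5 ± 3.36 CPM (n = 7 each), just over 1 SD apart, with ranges that overlapped on both diets. By diet, 8 of 37 list genes rose on HF/HS diet and 4 fell, against 12.1% and 11.4% of all genes tested. The corepressor *Tle1* rose by 0.41 ± 0.06 on the log2 scale (adjusted p = 1.77e-05) and the coactivator *Maml1* by 0.26 ± 0.04 (adjusted p = 1.56e-04).

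*Sox9* is also 1 of 10 cholangiocyte markers, and in bulk liver fewer cells of a type and less RNA per cell cannot be told apart. The summed level of the 10 markers was higher in HGFAC-KO mice by its median, at 79.9 CPM (69.6 to 115) against 67.9 CPM (57.03 to 96.5) on chow and 85.1 CPM (74.2 to 93.5) against 72.4 CPM (60.7 to 87.8) on HF/HS diet. With *Sox9* left out, the other 9 summed on chow to 53.0 ± 9.18 CPM (SD, n = 7) for controls and 59.7 ± 15.1 CPM (n = 6) for HGFAC-KO mice. On HF/HS diet the same sum was 56.6 ± 5.88 CPM (n = 7) and 57.7 ± 5.36 CPM (n = 7), and its ranges overlapped on both diets. Of the 10 markers 7 were tested, and 6 of the 7 were higher in HGFAC-KO mice on chow (median log2 fold change 0.11) and 3 of the 7 on HF/HS diet (-0.03), *Sox9* included. Beyond those sums, the part of cell composition in the *Hes1* difference was not tested.

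**Figure D4:**
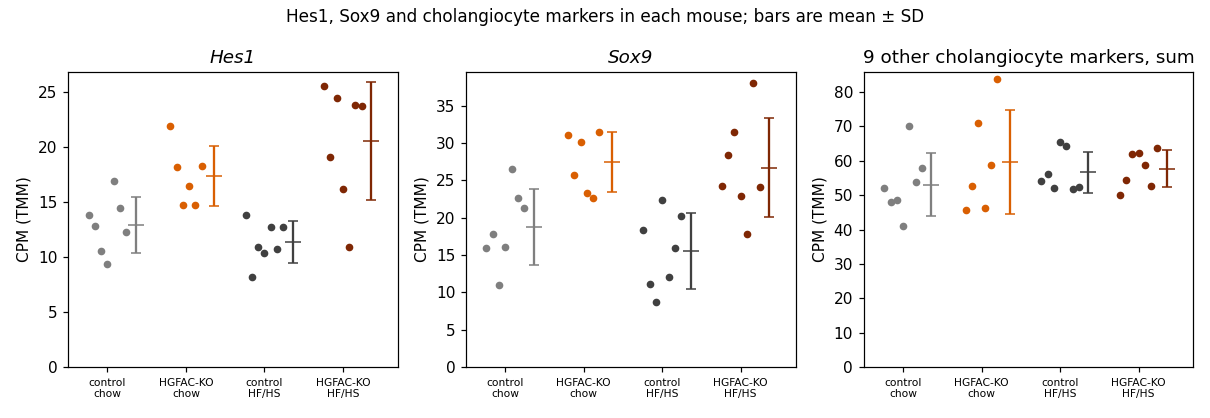
*Hes1*, *Sox9* and the sum of the 9 other cholangiocyte markers in every mouse (y axes, CPM after TMM scaling, from 0) in the 4 groups (x axis); points are mice and bars are mean ± SD. On HF/HS diet 6 of 7 HGFAC-KO mice lie above every control for *Hes1* and for *Sox9*, while the marker sums of the 2 genotypes overlap.

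Over the 27 mice, with each group's mean subtracted, the genes most like *Hes1* were *Cdc42se2* (Pearson r = 0.74), *Ccdc130* (r = 0.69) and *Piezo1* (r = 0.66), a mechanosensitive ion channel. None of these 3 had an unadjusted p under 0.05 for genotype on chow, and their chow log2 fold changes ran from -0.08 to 0.16. Such values of r, here and below, come from points that share their library and its depth. The nearest tested genes on either side, *4632428C04Rik* at 43.0 kb and *Cpn2*, a carboxypeptidase N subunit, at 189 kb, had chow log2 fold changes of -0.08 ± 0.15 and 0.08 ± 0.08 and HF/HS ones of -0.11 ± 0.22 and -0.02 ± 0.08.

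*Ctcfl* (chromosome 2, 173093609 to 173119525, minus strand), also called BORIS, is a DNA-binding paralog of CTCF whose usual site of expression is the male germ line. Under HF/HS feeding it lay between 2.35 and 4.43 CPM in controls (median 3.41) and between 1.75 and 2.61 CPM in HGFAC-KO mice (median 2.26), and 6 of 7 controls lay above every HGFAC-KO mouse. This was a log2 fold change of -0.66 ± 0.14 (SE). On chow the ranges were 2.42 to 5.03 CPM (median 3.18) and 2.41 to 4.05 CPM (median 2.77), and they overlapped almost wholly. On chow the log2 fold change of -0.22 ± 0.16 had an unadjusted p of 0.209 (edgeR quasi-likelihood test, adjusted p = 0.835). It was -0.33 ± 0.15 without HGFAC-KO chow replicate 1 and -0.09 without control chow replicate 4, the highest mouse of the other group. The diet response was 0.03 ± 0.16 in controls and -0.40 ± 0.14 in HGFAC-KO mice, and -0.18 ± 0.11 over both (adjusted p = 0.233).

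The annotated span of *Ctcfl* is overlapped in part by the antisense gene *Ctcflos* (173110818 to 173133204), which shares 5.32% of the exon bases of *Ctcfl*. The kit was stranded, but whether the counting used strand is not given in the sources used here, so reads of the 2 genes may not be fully apart. *Ctcflos* was lower in HGFAC-KO mice in the same direction, at 6.57 ± 1.51 CPM (SD, n = 6) against 9.12 ± 2.76 CPM (n = 7) on chow and 6.30 ± 1.05 CPM against 9.76 ± 3.06 CPM (n = 7 each) on HF/HS diet. Its chow log2 fold change of -0.47 ± 0.19 had an unadjusted p of 0.0255 and an adjusted p of 0.801 (edgeR quasi-likelihood test), and among the neighbours tested on chow it alone had an unadjusted p under 0.05. The next tested gene on 1 side, 33.5 kb away, was *Pck1*, the gluconeogenic enzyme phosphoenolpyruvate carboxykinase, which ran from 291 to 1652 CPM in chow HGFAC-KO mice and from 762 to 2166 CPM in chow controls. The chow log2 fold change of *Pck1* was -0.77 ± 0.47 (unadjusted p = 0.127), and that on HF/HS diet -0.97 ± 0.38. On the other side *Rbm38* at 58.9 kb had -0.19 ± 0.13 on chow and -0.01 ± 0.13 on HF/HS diet. Within groups *Ctcfl* had an r of 0.63 with *Ctcflos* and of 0.47 with *Pck1* over the 27 mice, and of 0.66 and 0.33 without HGFAC-KO chow replicate 1 and control chow replicate 4.

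Of 10 germ cell markers, 3 were at 0 in every mouse, 8 averaged under 1 CPM over all mice, and only 2 were tested. Their sum, which rests mostly on few genes, had medians between 13.4 and 16.6 CPM in the 4 groups. It reached 98.0 CPM in control HF/HS replicate 7, which also had the highest *Ctcfl* of its group. Without that mouse the *Ctcfl* difference on HF/HS diet was -0.59, and the part of germ cells in it was not tested. Of 14 CTCF and cohesin genes none passed on chow, where 4 of 14 were higher and the median log2 fold change was -0.09, while by diet 6 of 14 rose on HF/HS diet and none fell, against 12.1% and 11.4% of all genes. The cohesin subunit *Rad21* rose by 0.29 ± 0.04 on the log2 scale (edgeR quasi-likelihood test, adjusted p = 4.50e-06) and *Stag2* by 0.26 ± 0.07 (adjusted p = 0.00771). On chow the list genes with the smallest p, *Smc1a* and *Rad21*, had log2 fold changes of -0.10 ± 0.06 in both cases.

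*Gnpda1* (chromosome 18, 38327535 to 38339003, minus strand) encodes glucosamine-6-phosphate deaminase, which returns aminosugar to glycolysis as fructose-6-phosphate. Among HF/HS-fed mice it lay between 10.03 and 12.4 CPM in controls (median 10.2) and between 7.39 and 9.06 CPM in HGFAC-KO mice (median 7.97). Every HGFAC-KO mouse lay below every control, with a log2 fold change of -0.40 ± 0.07 (SE). On chow the mice were far more spread, from 7.88 to 27.3 CPM (median 14.4) among controls and 8.81 to 24.6 CPM (median 11.03) among knockouts. The coefficient of variation was 40.5% and 46.4% in the chow groups and 9.38% and 7.68% in the HF/HS groups. On chow the log2 fold change was -0.23 ± 0.30 (edgeR quasi-likelihood test, unadjusted p = 0.452, adjusted p = 0.882). It moved to -0.53 ± 0.25 without HGFAC-KO chow replicate 1 and to -0.02 without control chow replicate 4, so that its size on chow turned on single mice.

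*Gnpda1* fell on HF/HS diet, by 0.58 ± 0.15 on the log2 scale over both genotypes (edgeR quasi-likelihood test, adjusted p = 0.00629). The response was -0.50 ± 0.20 in controls and -0.67 ± 0.20 in HGFAC-KO mice, and -0.38 ± 0.10 in the latter without replicate 1 on chow. Its levels varied with *Slc7a2*, a cationic amino acid transporter (r = 0.78), *Sgk1*, an insulin- and glucocorticoid-responsive kinase (r = 0.78), and *Abcc4*, an efflux transporter (r = 0.78). *Slc7a2* was also the gene most like *Ctcfl* (r = 0.74), followed by *Mmd2* (r = 0.73) and the ornithine carrier *Slc25a15* (r = 0.70), and *Gnpda1* and *Ctcfl* had an r of 0.67 with each other. Without HGFAC-KO chow replicate 1 and control chow replicate 4, the highest mice of their groups for both genes, the values for *Gnpda1* were 0.48, 0.38 and 0.37, those for *Ctcfl* 0.53, 0.62 and 0.52, and that between the pair 0.38. *Abcc4* fell by 1.26 ± 0.14 on the log2 scale by diet (adjusted p = 1.80e-07). The flanking genes *Rnf14* at 9.69 kb and *Ndfip1* at 71.4 kb had log2 fold changes of 0.01 ± 0.05 and -0.06 ± 0.05 on chow and of -0.08 ± 0.04 and -0.10 ± 0.05 on HF/HS diet.

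Of the 20 other aminosugar genes, 19 were tested on chow and none passed there. At an unadjusted p under 0.05, 1 was lower, *Hk1*, at -0.30 ± 0.10, against 5.98% of all genes tested. *Npl* had the next smallest p, at -0.46 ± 0.27. By diet 4 of 20 rose and 3 fell, against 12.1% and 11.4% of all genes. The falls included *Uap1l1*, a relative of the pyrophosphorylase that makes UDP-N-acetylglucosamine, at 1.05 ± 0.11 lower on the log2 scale (edgeR quasi-likelihood test, adjusted p = 5.34e-08), and *Amdhd2*, the deacetylase that acts just before *Gnpda1*, which fell by 0.25 ± 0.05 (adjusted p = 6.33e-04).

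*Vwa8* (chromosome 14, 78849052 to 79202310, plus strand) encodes a large mitochondrial protein with AAA ATPase domains and a von Willebrand factor A domain. It had the highest level of the 9 per length of exon, with 24.7 CPM per kb as the mean of the 4 groups, followed by *Hes1* at 7.63, *Chrna2* at 5.28, *Gnpda1* at 2.73 and *Poc1b* at 1.72 CPM per kb. *Ctcfl*, *Tafa5*, *Lrtm1* and *Gldn* were at 0.935, 0.617, 0.287 and 0.167 CPM per kb. Under HF/HS feeding *Vwa8* lay between 355 and 392 CPM in controls (median 380) and between 267 and 343 CPM in HGFAC-KO mice (median 311), with no overlap and a log2 fold change of -0.28 ± 0.06 (SE). On chow the controls were tight, from 284 to 318 CPM (median 293), and the HGFAC-KO mice ran from 172 to 303 CPM (median 285). The lowest, HGFAC-KO chow replicate 1, stood well below the next at 258 CPM. The chow log2 fold change was -0.15 ± 0.10 (edgeR quasi-likelihood test, unadjusted p = 0.160, adjusted p = 0.823), and -0.05 ± 0.05 without that mouse. The exact permutation test on chow gave p = 0.0793.

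*Vwa8* rose on HF/HS diet by 0.28 ± 0.06 on the log2 scale over both genotypes (edgeR quasi-likelihood test, adjusted p = 8.35e-04). In controls the difference was 0.34 ± 0.04, and every HF/HS mouse lay above every chow mouse. In HGFAC-KO mice the difference was 0.22 ± 0.11, or 0.11 ± 0.07 without replicate 1 on chow, and the groups overlapped. Among 10 other mitochondrial AAA and protease genes none passed on chow, and by diet 4 fell and none rose, where 11.4% and 12.1% of all genes did. *Lonp1*, the matrix protease, fell by 0.20 ± 0.03 on the log2 scale (adjusted p = 3.77e-05) and *Spg7* by 0.11 ± 0.03 (adjusted p = 0.0194), the direction opposite to that of *Vwa8*. *Spg7* and *Bcs1l* had the smallest p on chow, at -0.07 ± 0.04 and 0.09 ± 0.06.

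The genes most like *Vwa8* were *Snx9* (r = 0.90), *Gphn* (r = 0.89) and *4930455C13Rik* (r = 0.87), but without HGFAC-KO chow replicate 1 the same values were 0.55, 0.64 and 0.55. The neighbours *Dgkh* at 116 kb and *Naa16* at 123 kb had chow log2 fold changes of 0.14 ± 0.23 and 0.00 ± 0.09, and HF/HS ones of -0.04 ± 0.21 and 0.10 ± 0.08. An antisense gene, *Gm49016*, covers 0.688% of the exon bases of *Vwa8*.

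*Poc1b* (chromosome 10, 99107036 to 99198074, plus strand) encodes a centriole protein needed for centriole stability and cilia. In mice fed HF/HS diet it lay between 6.57 and 9.11 CPM in controls (median 8.60) and between 5.34 and 7.00 CPM in HGFAC-KO mice (median 6.38). Of the 7 controls 6 lay above every HGFAC-KO mouse, and the 1 that did not, replicate 7, was at 6.57 CPM. The log2 fold change on HF/HS diet was -0.39 ± 0.08 (SE). On chow the ranges were 6.85 to 7.87 CPM (median 7.21) and 5.76 to 8.41 CPM (median 6.55), and 5 of 6 HGFAC-KO mice lay below every control while replicate 4 lay above all of them. On chow the log2 fold change was -0.12 ± 0.08 (edgeR quasi-likelihood test, unadjusted p = 0.173, adjusted p = 0.823; exact permutation p = 0.115), and it was -0.19 without replicate 4 (unadjusted p = 0.0156, edgeR). The diet difference was 0.20 ± 0.07 in controls, where 6 of 7 HF/HS mice lay above every chow mouse, and -0.07 ± 0.09 in HGFAC-KO mice (-0.11 ± 0.09 without replicate 1 on chow), with 0.07 ± 0.06 over both (adjusted p = 0.404).

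The span of *Poc1b* holds *Galnt4*, a glycosyltransferase gene on the same strand, and 30.1% of the exon bases of *Poc1b* are also annotated to *Galnt4* or to the antisense *Gm48768*, so its counts are uncertain by the way shared reads were assigned. *Galnt4* had log2 fold changes of -0.15 ± 0.10 on chow and -0.18 ± 0.06 on HF/HS diet, and it rose by 0.40 ± 0.06 by diet. On the outer sides *Atp2b1* (80.9 kb) and *Dusp6* (65.2 kb) had chow log2 fold changes of -0.05 ± 0.09 and -0.31 ± 0.16 and HF/HS ones of 0.01 ± 0.08 and 0.18 ± 0.15. Of 20 other centriole genes 19 were tested on chow, and none passed. *Cep192* and *Ccp110* had unadjusted p values of 0.0403 and 0.0431 there (edgeR quasi-likelihood test), with log2 fold changes of -0.34 ± 0.15 and -0.29 ± 0.13. Of all genes tested on chow 5.98% were under 0.05. By diet 2 of 19 rose and 1 fell, no more than the 12.1% and 11.4% of all genes, with *Sass6*, which builds the centriole cartwheel, up by 0.59 ± 0.08 on the log2 scale (edgeR quasi-likelihood test, adjusted p = 7.80e-06) and the scaffold *Pcnt* up by 0.20 ± 0.06 (adjusted p = 0.0121). The genes most like *Poc1b* were *Cd276* (r = 0.72), the ketone body enzyme *Bdh1* (r = 0.68) and the DNA repair gene *Rad50* (r = 0.68).

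*Chrna2* (chromosome 14, 66135039 to 66152948, plus strand) encodes the alpha 2 subunit of neuronal nicotinic acetylcholine receptors. Under HF/HS feeding it lay between 24.1 and 31.9 CPM in controls (median 28.1) and between 17.5 and 25.6 CPM in HGFAC-KO mice (median 19.7), and 6 of 7 HGFAC-KO mice lay below every control. This was a log2 fold change of -0.42 ± 0.09 (SE). On chow it lay between 14.3 and 19.3 CPM in controls (median 16.9) and between 10.6 and 17.3 CPM in HGFAC-KO mice (median 15.9), and the ranges overlapped. The chow log2 fold change of -0.15 ± 0.10 had an unadjusted p of 0.140 (edgeR quasi-likelihood test, adjusted p = 0.822), and it was -0.07 ± 0.07 without HGFAC-KO chow replicate 1.

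*Chrna2* rose on HF/HS diet, by 0.56 ± 0.07 on the log2 scale over both genotypes (edgeR quasi-likelihood test, adjusted p = 8.26e-07, rank 115 of 13932). The diet difference was 0.69 ± 0.08 in controls, or 1.61-fold, and 0.43 ± 0.11 in HGFAC-KO mice, or 1.35-fold, and every HF/HS mouse lay above every chow mouse of its genotype. With replicate 1 on chow left out, the difference in HGFAC-KO mice was 0.34 ± 0.09. The order of the 4 group medians was controls on HF/HS diet, HGFAC-KO on HF/HS diet, controls on chow and HGFAC-KO on chow, and the last 2 did not differ beyond their spread. Of the 15 other nicotinic subunits only *Chrnb1*, *Chrnb2* and *Chrna4* passed the filter on chow, and none of them differed by genotype at an unadjusted p under 0.05. *Chrnb2* fell by 0.41 ± 0.11 on the log2 scale by diet (adjusted p = 0.00653), while *Chrnb1* had a log2 fold change of -0.11 ± 0.15.

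*Chrna2* varied within groups with *Etfdh*, which feeds electrons from fatty acid oxidation into the respiratory chain (r = 0.82), the acyl-CoA dehydrogenase *Acad11* (r = 0.77) and *Mttp*, which loads lipid onto apolipoprotein B (r = 0.74). Without HGFAC-KO chow replicate 1 these values were 0.70, 0.60 and 0.56. *Chrna2* and *Vwa8* had an r of 0.70 with each other, and of 0.44 without that mouse. The closest tested neighbour, *Ptk2b*, ends 0.309 kb away on the opposite strand and had an r of 0.71 with *Chrna2*, or 0.53 without it, with log2 fold changes of -0.09 ± 0.09 on chow, -0.17 ± 0.07 on HF/HS diet and 0.14 ± 0.06 by diet (adjusted p = 0.0605). On the other side *Ephx2*, the soluble epoxide hydrolase, 10.5 kb away, had an r of 0.54, or 0.28 without the same mouse, and log2 fold changes of -0.07 ± 0.06 on chow and -0.13 ± 0.05 on HF/HS diet, and rose by 0.27 ± 0.04 by diet.

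*Tafa5* (chromosome 15, 87544299 to 87759364, plus strand; *Fam19a5* in the GENCODE annotation) encodes a small secreted chemokine-like protein. Among HF/HS-fed mice it lay between 1.43 and 2.38 CPM in controls (median 2.16) and between 0.940 and 1.61 CPM in HGFAC-KO mice (median 1.00). Of the 7 controls 6 lay above every HGFAC-KO mouse, and replicate 2 lay among them at 1.43 CPM. The log2 fold change was -0.82 ± 0.16 (SE). On chow it lay between 1.54 and 2.85 CPM in controls (median 2.54) and between 1.16 and 2.15 CPM in HGFAC-KO mice (median 1.44), and 4 of 7 controls lay above every HGFAC-KO mouse. On chow the log2 fold change was -0.48 ± 0.19 (edgeR quasi-likelihood test, unadjusted p = 0.0229, adjusted p = 0.801), and the exact permutation test gave p = 0.0420. Counts were low, from 41 to 131 reads per library. By diet the difference over both genotypes was -0.28 ± 0.13 (adjusted p = 0.102), with -0.12 ± 0.16 in controls and -0.45 ± 0.19 in HGFAC-KO mice.

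The windows before the starts of *Tafa5* and *Gldn* are shown because these are the genes, with *Hes1*, that had an unadjusted p under 0.05 on chow. RefSeq (GRCm38.p6) gave promoter windows for 5 of the 9 genes and none for *Gnpda1*, *Hes1*, *Ctcfl* and *Chrna2*. The 250 bases before the first of the 2 *Tafa5* starts, chr15:87544049-87544298 on the plus strand, and before the *Gldn* start, chr9:54286236-54286485 on the plus strand, read as follows, with letters that match a searched motif in capitals.
Tafa5: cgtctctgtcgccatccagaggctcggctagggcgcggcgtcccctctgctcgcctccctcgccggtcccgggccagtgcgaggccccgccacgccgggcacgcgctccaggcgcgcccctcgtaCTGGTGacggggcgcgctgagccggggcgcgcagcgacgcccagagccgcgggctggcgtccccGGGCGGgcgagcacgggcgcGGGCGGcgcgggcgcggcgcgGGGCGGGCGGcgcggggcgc
Gldn: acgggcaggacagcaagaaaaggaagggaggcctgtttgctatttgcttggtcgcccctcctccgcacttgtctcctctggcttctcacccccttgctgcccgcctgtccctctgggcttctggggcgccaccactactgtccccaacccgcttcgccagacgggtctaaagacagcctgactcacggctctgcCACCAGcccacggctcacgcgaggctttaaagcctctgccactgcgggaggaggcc
The motifs searched on both strands were the E-box CACGTG, the N-box CACNAG, the TATA box TATAAA, the CCAAT box CCAAT and the GC box GGGCGG. Of all 32851 windows of the same length, 6.02%, 36.7%, 12.4%, 33.85% and 32.7% held them, in that order. The *Tafa5* window held 4 GC boxes, 2 of which overlap each other, and 1 N-box, and 83.6% of its bases were G or C. The *Gldn* window held 1 N-box, which starts 56 bases before the start, and was 63.6% G or C, against a median of 52.4% over all windows. Neither window held the letters of the E-box, the TATA box or the CCAAT box.

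Of the 4 other TAFA genes none was tested on chow, and only *Tafa3* was tested by diet, at 0.12 ± 0.23. The genes most like *Tafa5* were *Pmpcb*, a subunit of the mitochondrial processing peptidase (r = 0.71), *Gm16157* (r = 0.66) and *Sra1* (r = 0.66). *Pmpcb* fell by 0.12 ± 0.03 on the log2 scale by diet (edgeR quasi-likelihood test, adjusted p = 0.00391). The nearest tested genes were *Tbc1d22a* at 1046 kb and *Brd1* at 928 kb, with chow log2 fold changes of -0.05 ± 0.05 and 0.00 ± 0.07 and HF/HS ones of -0.04 ± 0.07 and -0.12 ± 0.06.

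*Gldn* (chromosome 9, 54286486 to 54341786, plus strand) encodes gliomedin, an olfactomedin domain protein of Schwann cells that gathers sodium channels at nodes of Ranvier. It had the lowest level of the 9 genes and the largest relative differences. In mice fed HF/HS diet it lay between 0.156 and 0.849 CPM in controls (median 0.264), from 6 to 41 reads, and between 0.710 and 2.95 CPM in HGFAC-KO mice (median 1.55), from 39 to 138 reads. Of the 7 HGFAC-KO mice 6 lay above every control, and the log2 fold change was 1.94 ± 0.41 (SE). On chow it lay between 0 and 0.220 CPM in controls (median 0.104), from 0 to 11 reads, and between 0.209 and 3.28 CPM in HGFAC-KO mice (median 0.352), from 9 to 149 reads. There 5 of 6 HGFAC-KO mice lay above every control, and the sixth, at 0.209 CPM, lay just below the highest control.

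The low-count filter removed *Gldn* on chow, so its chow values come from the fit without a filter. The log2 fold change was 3.07 ± 0.78 (edgeR quasi-likelihood test, unadjusted p = 0.00162, adjusted p = 0.810, rank 21 of 18077), and the exact permutation test gave p = 0.00175. The size rested on HGFAC-KO chow replicate 6, with 149 reads: without it the log2 fold change was 1.94 ± 0.50, or 3.84-fold in place of 8.42-fold (unadjusted p = 0.00116). By diet *Gldn* rose by 1.48 ± 0.44 on the log2 scale over both genotypes (adjusted p = 0.0167). The response was 2.03 ± 0.52 in controls, again without the filter, where 4 of 7 HF/HS mice lay above every chow mouse. In HGFAC-KO mice it was 0.91 ± 0.60 with all chow mice and 2.05 ± 0.42 without replicate 6.

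*Gria3*, an AMPA glutamate receptor subunit, was the gene most like *Gldn* within groups (r = 0.75 over 27 mice), followed by *Exoc6b* (r = 0.75) and *Npdc1* (r = 0.72). *Gria3* also had higher means in HGFAC-KO mice, at 1.13 ± 0.547 CPM (SD, n = 6) against 0.647 ± 0.170 CPM (n = 7) on chow and 2.21 ± 0.748 CPM against 1.09 ± 0.334 CPM (n = 7 each) on HF/HS diet. Its chow log2 fold change of 0.81 ± 0.30 had an unadjusted p of 0.0150 and an adjusted p of 0.801 (edgeR quasi-likelihood test), and it rose by 0.86 ± 0.19 on HF/HS diet (adjusted p = 0.00198). The 10 Schwann cell and nerve markers summed to medians of 12.2 CPM (control) and 11.4 CPM (HGFAC-KO) on chow and of 14.97 and 14.4 CPM on HF/HS diet. Of these 10, 1 was at 0 in every mouse and 7 averaged under 1 CPM over all mice. Of the 6 tested, 2 were higher in HGFAC-KO mice on chow (median log2 fold change -0.11) and 3 on HF/HS diet (0.03). On HF/HS diet 2 of 6 were higher at an unadjusted p under 0.05 (edgeR quasi-likelihood test), where 669 of 13544 genes were, and none passed the adjusted p. By diet 1 of 6 rose, against 12.1% of all genes tested. The part of these cells in the *Gldn* difference was not tested. Of 12 other olfactomedin domain genes 8 were tested on chow, none passed, and none had an unadjusted p under 0.05, the smallest being those of *Olfm2* at -0.43 ± 0.33 and *Olfml1* at 0.20 ± 0.17. By diet 1 of 8 rose, *Olfm1* by 0.30 ± 0.10 on the log2 scale (adjusted p = 0.0257), and 1 fell, *Adgrl1* by 0.26 ± 0.07 (adjusted p = 0.0100). These counts are near the 12.1% and 11.4% of all genes tested. The neighbour *Dmxl2* at 23.4 kb had log2 fold changes of -0.25 ± 0.16 on chow and -0.18 ± 0.15 on HF/HS diet, and *Tnfaip8l3* at 218 kb had -0.14 ± 0.36 on HF/HS diet.

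*Lrtm1* (chromosome 14, 29018208 to 29033645, plus strand) encodes a transmembrane protein with leucine-rich repeats. Under HF/HS feeding it lay between 1.93 and 5.29 CPM in controls (median 3.22) and between 0.878 and 2.19 CPM in HGFAC-KO mice (median 1.43). Of the 7 controls 5 lay above every HGFAC-KO mouse, and the log2 fold change of -1.19 ± 0.25 (SE) was the most negative of the 9. On chow it lay between 0.898 and 5.79 CPM in controls (median 2.09) and between 0.683 and 3.10 CPM in HGFAC-KO mice (median 1.99), so the medians were close and the ranges overlapped. The chow log2 fold change was -0.31 ± 0.41 (edgeR quasi-likelihood test, unadjusted p = 0.465, adjusted p = 0.885), and it took the other sign, at 0.12, without control chow replicate 1, which held 5.79 CPM. Without HGFAC-KO chow replicate 1 it was -0.14 ± 0.41. The diet difference was 0.58 ± 0.37 in controls and -0.30 ± 0.28 in HGFAC-KO mice, or -0.47 ± 0.23 in the latter without replicate 1 on chow, with 0.14 ± 0.25 over both (adjusted p = 0.719) and 0.35 over both without control chow replicate 1 (adjusted p = 0.245).

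None of the 5 other leucine-rich repeat transmembrane genes listed beside *Lrtm1* passed the filter in any comparison. The genes most like it were *Cd59a*, which restrains complement (r = 0.71), the RNA-binding gene *Khdrbs3* (r = 0.70) and *4931422A03Rik* (r = 0.67). *Khdrbs3* rose by 0.17 ± 0.06 on the log2 scale by diet (edgeR quasi-likelihood test, adjusted p = 0.0404) and had a chow genotype log2 fold change of -0.14 ± 0.07. The nearest tested genes were *Wnt5a*, a Wnt ligand, at 491 kb, and *Selenok* at 935 kb. *Wnt5a* had genotype log2 fold changes of 0.04 ± 0.21 on chow and 0.69 ± 0.23 on HF/HS diet, the latter opposite in sign to *Lrtm1*, and fell by 0.65 ± 0.16 by diet (adjusted p = 0.00436). *Selenok* had 0.03 ± 0.09 and -0.03 ± 0.09.

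Set side by side, the genotype difference was smaller on chow than on HF/HS diet for 8 of the 9 genes, and since the genes were chosen on HF/HS diet nothing is read from that count. The genotype difference on HF/HS diet minus that on chow, given without a test for the same reason, was 0.42 ± 0.22 for *Hes1* on the log2 scale, and negative for the 8 others. It was largest against its SE for *Poc1b*, at -0.27 ± 0.11, and *Ctcfl*, at -0.44 ± 0.22, and smallest for *Gnpda1*, at -0.17 ± 0.30, and *Vwa8*, at -0.13 ± 0.12. The median size of the chow log2 fold change was 0.23 over the 9 genes, *Gldn* taken without a filter, and 0.07 over all genes tested. Nothing is read from these values. The list was drawn up with chow results known, and some of its genes had a large SE, such as 0.41 for *Lrtm1* and 0.30 for *Gnpda1*. On both diets the summed levels of stellate (158 to 380 CPM over all mice), endothelial (139 to 319 CPM), Kupffer and myeloid (149 to 409 CPM) and lymphocyte markers (1.91 to 6.39 CPM) overlapped between the genotypes. Their single genes leaned one way on chow, where 0 of 10 Kupffer and myeloid markers (median log2 fold change -0.26), 1 of 10 endothelial (-0.22), 2 of 10 stellate (-0.06) and 1 of 6 lymphocyte markers tested (-0.13) were higher in HGFAC-KO mice. On HF/HS diet the same counts were 7 of 10 (0.07), 1 of 10 (-0.15), 6 of 10 (0.10) and 2 of 7 (-0.04), no marker passed the adjusted p on either diet, and the part of these cell types was not tested. The hepatocyte marker sum had higher medians in HGFAC-KO mice, at 99817 CPM (95275 to 105247) against 89045 CPM (82947 to 95855) on chow and 109686 CPM (94297 to 120542) against 87784 CPM (82175 to 102397) on HF/HS diet. Of its 10 genes 6 were higher on chow (median log2 fold change 0.05) and 7 on HF/HS diet (0.04). None passed the adjusted p on either diet. The sum gives most weight to the most abundant genes, so it need not move with the median gene. The part of hepatocyte markers in the differences of the 9 genes was not tested.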

How the data were processed

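Total liver RNA was captured for mRNA, made into libraries with a stranded kit and sequenced as paired-end reads. The authors used HISAT2 for alignment to GRCm38 and featureCounts 1.6.3 for counting (from the submitters' processing notes), and they deposited counts per gene without normalization. How reads shared by overlapping genes or by strand were assigned is not given in the sources used here, and such genes are marked as uncertain. The table had 27179 rows; 3886 without a gene name, holding 4.13% to 12.1% of a library, were left out, and rows sharing a symbol were summed, which touched none of the 9 genes. Groups came from the labels. All pairs of libraries within a group differed by more than sampling noise.

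Counts were tested with edgeR 4.0.16 in R 4.3.3 (filterByExpr with a minimum count of 10 and a minimum total of 15, TMM, robust quasi-likelihood test) over all genes, with Benjamini-Hochberg adjustment and a threshold of 0.05: genotype within the 13 chow mice, and diet averaged over genotypes within all 27 mice. Exact two-sided permutation tests on chow used log2 CPM with a prior count of 2. The scripts were tested on simulated data. Alternatives used DESeq2 1.42.0, limma 3.58.1 (voom), sva 3.50.0, other filters and scalings, a replicate block and fits without each mouse. Fold changes of genes with few counts depend on the prior count. P-values measure the spread between mice.

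The 9 genes and the gene lists were chosen with earlier results of these data known. The other genes named are *Hgfac*, each gene's overlapping and nearest tested neighbours, the 3 genes of at least 1 CPM with the highest r over the 27 mice with group means subtracted, and the 2 genes per pathway or family list with the smallest p on chow and for diet; others are marked or stand at a limit of the choice. Positions are from GENCODE M21 and promoter windows from RefSeq.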

Additional observations from a re-analysis of the deposited data

Results flagged for a closer look

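Each of the 9 genes was checked in each of the 4 groups for 1 mouse far from the others by Dixon's criterion, and 8 of these 36 groups held one, where chance gives about 1 in 20. HGFAC-KO chow replicate 1 was that mouse for 4 genes. It was high for *Gnpda1*, at 24.6 CPM against 8.81 to 12.9 CPM in the other 5 mice, and for *Ctcfl*, at 4.05 CPM against 2.41 to 2.89 CPM. It was low for *Vwa8*, at 172 CPM against 258 to 303 CPM, and for *Chrna2*, at 10.6 CPM against 15.02 to 17.3 CPM. HGFAC-KO chow replicate 6 was high for *Gldn*, at 3.28 CPM against 0.209 to 0.830 CPM, and it also had the highest share of counts on rows without a gene name, at 12.1%. Control chow replicate 1 was high for *Lrtm1*, at 5.79 CPM against 0.898 to 2.34 CPM. On HF/HS diet, control replicate 2 was low for *Tafa5*, at 1.43 CPM against 2.01 to 2.38 CPM, and control replicate 7 was low for *Poc1b*, at 6.57 CPM against 8.35 to 9.11 CPM.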

How the results depend on the processing

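The number of the 9 genes that passed on chow was 0 with limma voom, other filters and scalings, 1 surrogate variable, the replicate block, 1 fit of all 27 mice, and each of the 13 chow mice left out. It was also 0 with DESeq2, which gave no adjusted p for 7 of the 8 genes tested, so that value says nothing of them. At an unadjusted p under 0.05 it was 1 to 3 of 8, against 2. The number with the same direction on both diets, *Gldn* taken without a filter, was 8 or 9. The number that passed for averaged diet was 3 (at least 10 counts in every library, which removes *Gldn*) or 4. Over all genes on chow, DESeq2 called 13 genes where edgeR called 1. Values that changed sign were *Lrtm1* on chow, at 0.12 without control chow replicate 1 and -0.51 to 0.12 over all chow mice left out in turn, and *Hes1* by diet, where both values lie next to 0, at -0.0041 without control chow replicate 4 and -0.0020 without HGFAC-KO HF/HS replicate 1, against 0.03 with all mice and up to 0.082 without HGFAC-KO HF/HS replicate 5. The unadjusted p on chow reached 0.0580 for *Tafa5* without HGFAC-KO chow replicate 3 and 0.0130 for *Hes1* without replicate 1. Mice with the same replicate number did not deviate together in every pair (r from -0.25 to 0.37). The labels do not say whether the number stands for anything shared, and pairs with different numbers were not compared. With a replicate block the counts stayed at 0, 9 and 4. For *Gldn* on chow, chosen after seeing the data, the same settings without a filter gave log2 fold changes of 1.94 to 3.38 and adjusted p values of 0.0904 to 0.941. At the depth of these libraries *Gldn* on chow rests on 0 to 11 reads per control, which limits how well its fold is known.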
